A study of Rattus norvegicus with 18 samples.

Results

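The mevalonate pathway to squalene was followed through 9 genes, Aacs, Acat2, Hmgcs1, Mvk, Pmvk, Mvd, Idi1, Fdps and Fdft1, in the liver of 18 male Wistar rats. The members were chosen with earlier results of these data known. They were looked up by gene symbol among the 32623 genes of the deposited tables, and each symbol was found once. All 9 were among the 12904 genes that passed the filter on low counts. Control rats (n = 6) were kept on standard chow and normal water for 12 weeks. NASH rats (n = 6) had 6 weeks of inhaled CCl4, a hepatotoxin, together with phenobarbital in their drinking water, and then 4 weeks of a diet rich in fat and cholesterol (HFCD). NASH-CH rats (n = 6), a model of NASH with cirrhosis, were exposed to CCl4 and phenobarbital throughout 24 weeks, and the HFCD was added for the final 16. The models therefore differed from controls in diet, toxin, phenobarbital and duration at once, and NASH rats were no longer exposed to CCl4 or phenobarbital when their livers were taken, whereas NASH-CH rats were. Ages were not given in the sources used here. Rats shared cages, which the labels do not name, so p-values treat the rats as separate and measure the spread between them.

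Cells build cholesterol and isoprenoids from acetyl-CoA by this route. Acat2, the cytosolic thiolase, joins acetyl-CoA into acetoacetyl-CoA, and Aacs makes the same product from the ketone body acetoacetate. Hmgcs1 adds a further acetyl unit to give HMG-CoA, the precursor of mevalonate. Mvk, Pmvk and Mvd then phosphorylate and decarboxylate mevalonate to isopentenyl diphosphate, Idi1 isomerizes it, Fdps condenses the units into farnesyl diphosphate, and Fdft1 joins farnesyl units into squalene, the first step committed to sterols. Most of these genes are known targets of SREBP-2, a transcription factor that is held in the endoplasmic reticulum when its membrane is rich in cholesterol, and the liver lowers its own synthesis when cholesterol is taken in with food.

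The DNA just before the start of some of these genes is given first, because their transcripts moved together. RefSeq promoter windows of the GRCr8 assembly were found for 7 of the 9 genes; Pmvk and Fdft1 had no entry. The 250 bases before the start were searched on both strands for TCACNCCAC, a form of the sterol regulatory element, for CCAAT, the core of the NF-Y box, and for GGGCGG, the GC box. Shown here are Acat2, Mvd and Fdps, the 3 genes after Aacs with the largest decreases in NASH, and Mvk, the gene with the smallest. Letters in capitals mark matches to any of these motifs.
Acat2, chr1:50100590-50100839, plus strand: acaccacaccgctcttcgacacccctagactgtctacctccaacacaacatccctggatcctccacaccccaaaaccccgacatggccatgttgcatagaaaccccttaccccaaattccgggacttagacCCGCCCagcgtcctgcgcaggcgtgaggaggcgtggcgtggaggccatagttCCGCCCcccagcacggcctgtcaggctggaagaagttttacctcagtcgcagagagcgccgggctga
Mvd, chr19:67414975-67415224, minus strand: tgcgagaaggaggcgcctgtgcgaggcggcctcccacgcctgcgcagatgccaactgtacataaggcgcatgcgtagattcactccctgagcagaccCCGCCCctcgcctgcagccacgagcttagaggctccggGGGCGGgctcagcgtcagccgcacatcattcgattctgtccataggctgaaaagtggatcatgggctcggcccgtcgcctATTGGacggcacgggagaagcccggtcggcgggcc
Fdps, chr2:176804817-176805066, minus strand: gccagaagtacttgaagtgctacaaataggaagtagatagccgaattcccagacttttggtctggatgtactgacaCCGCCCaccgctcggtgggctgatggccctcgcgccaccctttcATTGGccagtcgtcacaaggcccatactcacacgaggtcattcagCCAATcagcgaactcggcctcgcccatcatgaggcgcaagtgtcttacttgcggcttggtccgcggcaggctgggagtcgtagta
Mvk, chr12:47819504-47819753, minus strand: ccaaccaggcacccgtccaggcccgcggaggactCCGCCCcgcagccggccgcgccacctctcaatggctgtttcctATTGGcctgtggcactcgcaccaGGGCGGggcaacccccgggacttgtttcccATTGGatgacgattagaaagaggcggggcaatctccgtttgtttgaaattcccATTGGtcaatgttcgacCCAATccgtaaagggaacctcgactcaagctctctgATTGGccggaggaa

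A CCAAT match was present in 5 of the 7 windows, compared with 34.0% of 33465 rat promoter windows of the same length, and a GGGCGG match in 5 of the 7, compared with 30.5%. Among 10 windows of sterol branch genes, 8 held CCAAT and 9 held GGGCGG. In Fdps an ATTGG lay 130 to 126 bases before the start and a CCAAT 85 to 81 before it (ATTGG is CCAAT read on the other strand), and Mvk held 5 such boxes. None of the 7 windows held TCACNCCAC, which 0.974% of all windows did, so these letters were not in this stretch. Other forms of the sterol regulatory element were not searched for, so their absence cannot be read from this. The printed matches do not overlap each other. A match is a description of sequence and was not tested for binding. The Aacs window held no match to any of the 3 motifs, and the windows of Aacs and Hmgcs1, which overlap another annotated transcript of the same gene, are not printed.

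In NASH rats every member fell, and 7 of the 9 still passed as lower in NASH-CH rats, whereas none passed between the NASH-CH and NASH groups. Relative to controls, the log2 fold changes ran from -3.07 (Aacs) to -0.88 (Mvk) in NASH and from -3.06 (Aacs) to -0.39 (Mvk) in NASH-CH. All 9 genes had an adjusted p under 0.05 and a lower level in NASH (limma-voom, Benjamini-Hochberg over 12904 genes), where 1.54% of all genes tested were called lower and 3.12% in either direction. In NASH-CH 7 of the 9 were called lower, where 8.60% of all genes were called lower and 17.0% in either direction. Without control rat 1, or without NASH rat 3, 5 members were called in NASH, and without any 1 rat 5 to 7 were called in NASH-CH. In 7 members every NASH rat lay below every control rat, which held for 1.39% of all genes, and in 3 members (Aacs, Acat2 and Mvd) every NASH-CH rat did, which held for 3.46%. The median log2 fold change of the members was -1.97 in NASH and -1.40 in NASH-CH, and that of all genes tested was 0.01 in both comparisons. Both comparisons share the same 6 controls. With scaling by library size only, the median of all genes moved to 0.23 and 0.27, and 80 of 865 called genes were lower in NASH and 489 of 3270 in NASH-CH, compared with 199 of 403 and 1110 of 2192 with TMM scaling, and 7 and 5 members were still called lower.

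**Figure D1:**
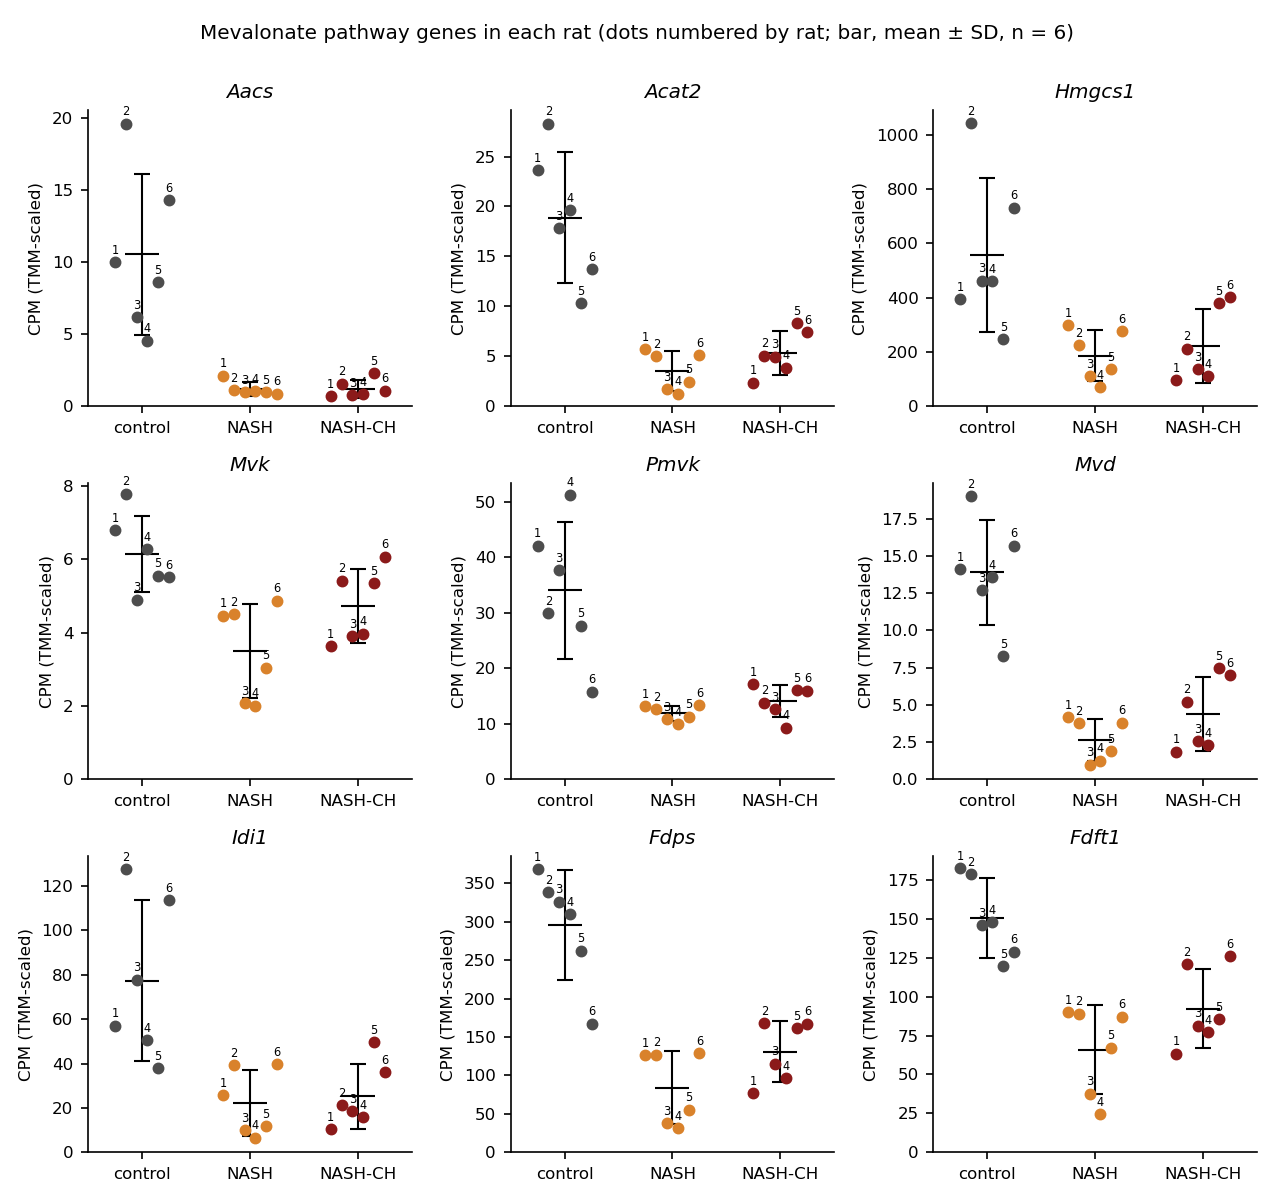
Level of each of the 9 genes in each of the 18 rats, in TMM-scaled CPM (counts scaled to a common library size) on linear axes that start at 0; dots are rats with their number, and the bar is the mean ± SD of 6 rats. In every panel the means of both models lie below the control mean, and Hmgcs1 and Idi1 are the panels in which a NASH rat reaches into the control range.

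The entry into the pathway by ketone bodies showed the largest decrease. In CPM, which are counts scaled to a common library size with TMM factors, Aacs stood at 4.55 to 19.6 in control rats (median 9.33), at 0.885 to 2.14 in NASH rats (median 1.03) and at 0.70 to 2.31 in NASH-CH rats (median 0.958). No rat of either model reached the lowest control rat. In NASH the gene was 8.37-fold lower than in controls (95% interval 4.39 to 16, log2 fold change -3.07, SE 0.44, adjusted p = 0.00265), and in NASH-CH it was 8.33-fold lower (95% interval 4.90 to 14.2, log2 fold change -3.06, SE 0.36, adjusted p = 1.42e-05). Its mean was 11.4% of the control mean in NASH and 11.5% in NASH-CH rats. The lowest count of Aacs in any rat was 25, so counting error was not negligible in single rats.

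The thiolase Acat2 followed. Its level was 10.3 to 28.3 CPM in controls (median 18.7), 1.26 to 5.75 in NASH (median 3.76) and 2.36 to 8.30 in NASH-CH (median 5.03), and neither model overlapped the controls. The decrease was 5.83-fold in NASH (95% interval 3.29 to 10.4, log2 fold change -2.54, SE 0.39, adjusted p = 0.00431) and 3.57-fold in NASH-CH (95% interval 2.24 to 5.71, log2 fold change -1.84, SE 0.32, adjusted p = 0.000862). Expected counts of Acat2 were not whole numbers in 18 of 18 rats (at a tolerance of 0, with a largest distance of 0.43 from a whole number), as happens when RSEM divides reads among genes that share sequence. Acat2l1, a gene named as a copy of Acat2, ran from 3.97 to 8.91 CPM in controls, 2.18 to 5.66 in NASH and 3.26 to 4.86 in NASH-CH. With the counts of both genes summed, the log2 fold changes were -1.82 (adjusted p = 0.00456) and -1.40 (adjusted p = 0.00147), so the direction and the calls did not depend on how reads were divided between this pair, while the size did.

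Hmgcs1, the cytosolic HMG-CoA synthase, varied widely among control rats, with a coefficient of variation of 51.1%. It ranged from 248.5 to 1042 CPM in controls (median 462), from 70.3 to 299 in NASH (median 182) and from 95.7 to 402 in NASH-CH (median 174.5). Of the 6 rats, 4 in each model lay below every control, and the others reached into the control range, where control rat 5 was the lowest and control rat 2 the highest. Its log2 fold change was -1.59 in NASH (SE 0.42, adjusted p = 0.0483) and -1.40 in NASH-CH (SE 0.44, adjusted p = 0.0371). These calls were close to the threshold and were lost in 10 of 12 and 9 of 12 fits that each left out 1 rat, with log2 fold changes from -1.79 to -1.33 and from -1.62 to -1.20.

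The kinases and the decarboxylase that turn mevalonate into isopentenyl diphosphate differed in size of change. Mvk, mevalonate kinase, went from 4.90 to 7.79 CPM in controls (median 5.92) to 2.01 to 4.87 in NASH (median 3.75), without overlap, and was 3.64 to 6.07 in NASH-CH (median 4.66). It fell by 0.88 on the log2 scale in NASH (SE 0.22, adjusted p = 0.0393), a call that was lost in 8 of 12 fits that each left out 1 rat. In NASH-CH the value was -0.39 (95% interval -0.79 to 0.02, adjusted p = 0.177), and 3 of 6 rats lay below every control.

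Pmvk, phosphomevalonate kinase, ran from 15.8 to 51.3 CPM in controls (median 33.8), from 9.98 to 13.4 in NASH (median 12) and from 9.30 to 17.2 in NASH-CH (median 14.9). The NASH rats lay close together, with a coefficient of variation of 11.7%, compared with 36.4% in controls, and all were below control rat 6, the lowest of its group. NASH-CH rats 1, 5 and 6 were just above that control rat. Log2 fold changes of Pmvk were -1.43 in NASH (SE 0.22, adjusted p = 0.00449) and -1.20 in NASH-CH (SE 0.22, adjusted p = 0.00107).

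Mvd, diphosphomevalonate decarboxylase, changed most of these 3 enzymes. Its level was 8.28 to 19.0 CPM in controls (median 13.8), 1.00 to 4.19 in NASH (median 2.83) and 1.86 to 7.45 in NASH-CH (median 3.88), so that both models lay wholly below the controls. The gene was 5.88-fold lower in NASH (95% interval 3.14 to 11.0, adjusted p = 0.00562) and 3.50-fold lower in NASH-CH (95% interval 2.14 to 5.74, adjusted p = 0.00152), by limma-voom.

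The isoprenoid steps were lower as well. Idi1, isopentenyl-diphosphate isomerase, ran from 37.9 to 127 CPM in controls (median 67.4), from 6.71 to 39.8 in NASH (median 18.8) and from 10.6 to 49.6 in NASH-CH (median 19.9). The highest rats of each model, NASH rats 2 and 6 and NASH-CH rat 5, exceeded the lowest control. Its log2 fold change was -1.97 in NASH (SE 0.46, adjusted p = 0.0280), lost in 6 of 12 fits that each left out 1 rat, and -1.67 in NASH-CH (SE 0.46, adjusted p = 0.0192).

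Fdps, farnesyl diphosphate synthase, stood at 167 to 368.5 CPM in controls (median 318), 31.4 to 129 in NASH (median 90.8) and 76.7 to 168 in NASH-CH (median 138.5). Only NASH was fully apart from the controls, since NASH-CH rats 2 and 6 were level with control rat 6, the lowest. On the log2 scale Fdps fell by 2.01 in NASH (SE 0.36, adjusted p = 0.00829) and by 1.21 in NASH-CH (SE 0.39, adjusted p = 0.0384), and the latter call was lost in 8 of 12 fits that each left out 1 rat. By the same count Fdps had values that were not whole in 13 of 18 rats and Idi1 in 2 of 18, but these lay within 0.10 and 0.12 of a whole number, and how many reads were shared with other genes cannot be read from that.

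Fdft1, squalene synthase, ended the series with 119.6 to 182 CPM in controls (median 147), 24.7 to 89.8 in NASH (median 77.2) and 63.3 to 126 in NASH-CH (median 83.3). Every NASH rat was below every control, and 4 of 6 NASH-CH rats were. The log2 fold change was -1.33 in NASH (SE 0.28, adjusted p = 0.0200). In NASH-CH it was -0.73 (95% interval -1.37 to -0.10, adjusted p = 0.104), which did not pass with limma-voom but did with DESeq2 and when only these groups were fitted.

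**Figure D2:**
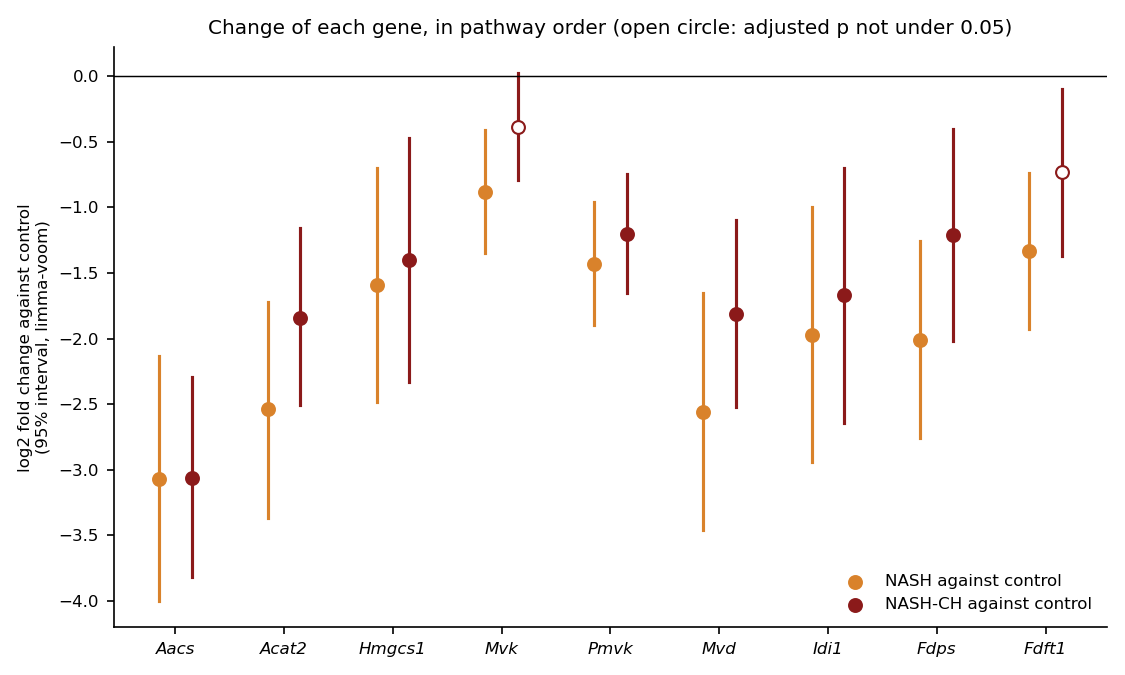
Log2 fold change against control rats (y axis, with 95% intervals from limma-voom) for the 9 members in pathway order (x axis), in NASH and in NASH-CH; filled circles have an adjusted p under 0.05. The 9 NASH values lie between -3.07 and -0.88 and are filled, and Mvk and Fdft1 are open in NASH-CH.

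Between the models, the 9 log2 differences (NASH-CH minus NASH) were all above 0, from 0.01 (Aacs) to 0.80 (Fdps), with a median of 0.49 and a median over all genes of 0.01. None passed by limma-voom, edgeR's quasi-likelihood test or DESeq2, where 4.20% of all genes were called in either direction by limma-voom. By limma-voom 2 members, Mvk and Fdps, had an unadjusted p under 0.05. So did 2254 of the 12904 genes tested, and these 2 of 9 are not a result about the members. For Fdps the difference was 0.80 (95% interval 0.05 to 1.56, adjusted p = 0.249), for Mvd 0.75 (95% interval -0.17 to 1.67, adjusted p = 0.400) and for Aacs 0.01 (95% interval -1.03 to 1.05, adjusted p = 0.996). For 7 of the 9 members the interval included 0. The sign turned under other processing for Aacs, Hmgcs1 and Idi1.

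Individual rats stood high or low for most members at once. In the NASH group rats 1, 2 and 6 held the 3 highest levels of 8 of the 9 members, all but Aacs, and NASH rat 4 was the lowest for 7. In the NASH-CH group rats 2, 5 and 6 held the 3 highest levels of 8 members, all but Pmvk, and NASH-CH rat 1 was the lowest for 8. Among controls, rat 2 was the highest for 6 members and rat 5 the lowest for 5, but no set of 3 rats was the highest for more than 3 members. As percent of the control mean, NASH rats 3, 4 and 5 had 7.22, 9.06 and 13.6% of Mvd, and NASH rats 1, 2 and 6 had 30.2, 27.1 and 27.5%. The lowest count of Mvd in any rat was 26, so counting error was not negligible in single rats. In NASH-CH, Mvd ran from 13.4% in rat 1 to 53.7% in rat 5. These rats were picked out after their values were seen, and no test was made between them. Srebf2, which encodes SREBP-2, had the same 3 highest rats in both models. Total counts were highest in rats 3, 5 and 6 in NASH and 1, 3 and 5 in NASH-CH. The summed hepatocyte markers, which mostly followed Alb, were highest in rats 1, 5 and 6 in NASH and 1, 2 and 3 in NASH-CH. Apoa1, 1 of the 7 hepatocyte markers, was highest in rats 1, 5 and 6 in NASH and 2, 5 and 6 in NASH-CH. The TMM factor was highest in rats 3, 4 and 6 and in rats 4, 5 and 6. The summed stellate cell markers were highest in rats 3, 5 and 6 in NASH and 2, 5 and 6 in NASH-CH. The part of Srebf2, library scaling or cell makeup in this pattern was not tested.

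**Figure D3:**
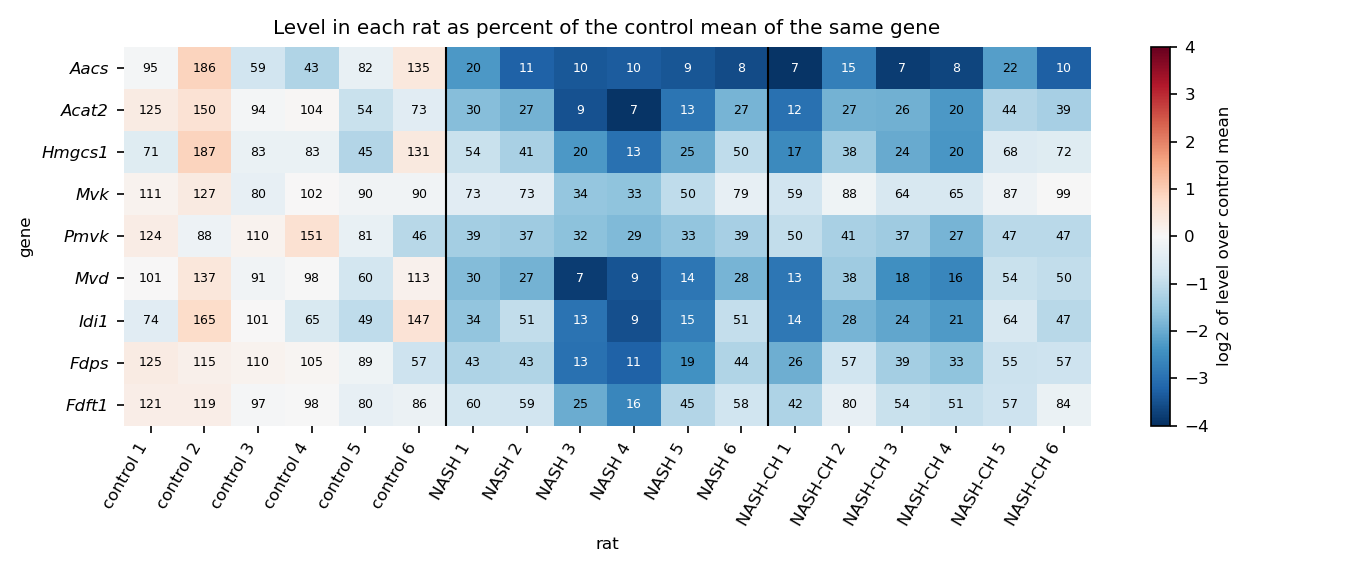
Level of each gene (rows) in each rat (columns) as percent of the mean of the 6 control rats, printed in each cell; color shows the log2 of that ratio. Mvd in NASH runs from 7.22% (rat 3) to 30.2% (rat 1) and in NASH-CH from 13.4% (rat 1) to 53.7% (rat 5), and NASH rats 3 and 4 are among the darkest columns.

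With each rat set against the mean of its own group, the 36 pairs of members had a median Pearson correlation of 0.734 over the 18 rats (lowest -0.277, highest 0.928), a description with no test, since the genes of a rat share 1 library. Acat2 followed the mean of the other 8 members most closely within groups (r = 0.958), then Mvd (r = 0.946) and Mvk (r = 0.935). Aacs (r = 0.423) and Pmvk (r = 0.259) followed it least, and both were without overlap between NASH and control rats.

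The 10 genes outside the members whose log2 CPM was most like the members' mean z-score over the 18 rats, among named genes of at least 10 CPM, were Cyp51, Acss2, Dhcr7, Lss, Msmo1, Sc5d, Apoa1, Nsdhl, Hsd17b7 and Hdac1. Pearson's r ran from 0.970 (Cyp51, Spearman's rho 0.981) to 0.837 (Hdac1, rho 0.841), which includes the difference between groups, and within groups from 0.961 (Cyp51) to 0.503 (Hdac1). Of the 10, 7 encode enzymes that act after squalene (Cyp51, Dhcr7, Lss, Msmo1, Sc5d, Nsdhl and Hsd17b7).

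Of 13 genes of the sterol branch, nearly all of which act after squalene, 7 were called lower in NASH and none higher, with a median log2 fold change of -1.05. In NASH 1.54% of all genes were called lower. The largest by moderated t were Dhcr7, the last reductase of cholesterol synthesis (-1.74, SE 0.30, adjusted p = 0.00597), Nsdhl (-1.05, SE 0.18, adjusted p = 0.00731), Lss, lanosterol synthase (-1.49, SE 0.28, adjusted p = 0.0110), Sc5d (-0.70, SE 0.15, adjusted p = 0.0201) and Cyp51, lanosterol demethylase (-1.52, SE 0.34, adjusted p = 0.0245). Cyp51 ran from 237.9 to 315 CPM in controls, from 38.4 to 171 in NASH and from 76.4 to 216 in NASH-CH, and neither model overlapped the controls. In NASH-CH 2 of the 13 were called lower, Dhcr7 (-1.22, SE 0.31, adjusted p = 0.0124) and Tm7sf2 (-1.30, SE 0.35, adjusted p = 0.0162), with a median of -0.61. Of all genes 8.60% were called lower there and 17.0% in either direction, so 2 of 13 is not a result about the list. Cyp51 there had a value of -1.05 (adjusted p = 0.0533).

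Of 13 genes of sterol sensing and uptake, none was called in NASH (median -0.24, with 3 at an unadjusted p under 0.05, and Insig1, which retains SREBPs in the endoplasmic reticulum, at adjusted p = 0.0579). In NASH 2776 of the 12904 genes tested had an unadjusted p under 0.05 by limma-voom. Srebf2 did not pass in either comparison, with a log2 fold change of -0.35 in NASH (adjusted p = 0.385) and of 0.13 in NASH-CH (adjusted p = 0.741). In NASH-CH Mbtps1, a protease that releases SREBPs (0.28, SE 0.09, adjusted p = 0.0363), and Mylip, a ligase that marks the LDL receptor for breakdown (0.58, SE 0.19, adjusted p = 0.0455), were called higher. These 2 of 13 were near the 17.0% of all genes called in either direction, and are not a result about the list.

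Genes that use isoprenoids for prenylation, ubiquinone and dolichol, which branch off before or at farnesyl diphosphate, showed small differences. None of 16 was called in NASH (median -0.13, 2 at an unadjusted p under 0.05, as were 2776 of the 12904 genes tested). In NASH-CH 1, Rabggtb, a subunit of the Rab geranylgeranyl transferase, was called lower (-0.55, SE 0.10, adjusted p = 0.00118). In NASH-CH 8.60% of all genes were called lower, so this 1 of 16 is not a result about the list. Of 8 genes of acetyl-CoA supply and ketone bodies, those called lower in NASH were Acss2, which makes acetyl-CoA from acetate (-1.81, SE 0.34, adjusted p = 0.0110), and Acly, which makes it from citrate (-2.11, SE 0.52, adjusted p = 0.0342). In NASH-CH Acss2 was called lower (-1.30, SE 0.35, adjusted p = 0.0169) and Oxct1, the enzyme that uses ketone bodies outside hepatocytes, higher (0.78, SE 0.24, adjusted p = 0.0360), while Acly did not pass (-1.13, SE 0.56, adjusted p = 0.174). Over all genes, 1.54% were called lower in NASH, and 17.0% were called in either direction in NASH-CH.

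**Figure D4:**
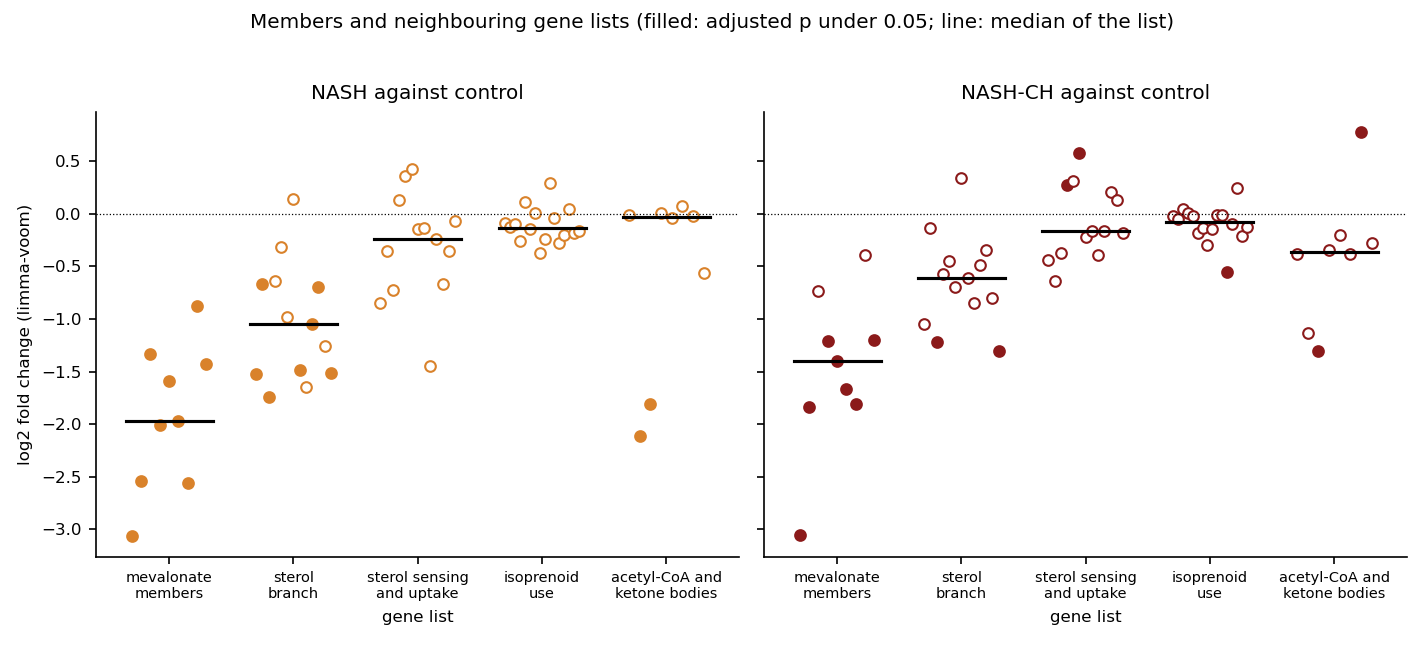
Log2 fold change against control (y axis) of the 9 members and of 50 genes in neighbouring lists (x axis), in NASH on the left and NASH-CH on the right; filled circles have an adjusted p under 0.05 and lines are medians. The members have the lowest median (-1.97 and -1.40), then the sterol branch (-1.05 and -0.61), and the isoprenoid-use genes lie near 0 (-0.13 and -0.08).

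Fewer hepatocytes and less RNA per hepatocyte cannot be told apart in whole liver. The 7 hepatocyte markers summed to 122449 to 181853 CPM in controls, 83478 to 142373 in NASH and 80402 to 131972 in NASH-CH, none was at 0, and their median log2 fold changes were -0.24 and -0.32. Alb alone had a mean of 105874 CPM in controls, so this sum mostly followed 1 gene. Of the 7 markers 1 was called lower in NASH and 3 in NASH-CH. Apoa1 was lower in both (-0.82, adjusted p = 0.0110, and -0.66, adjusted p = 0.0107) and is among the genes most like the members. Of 6 macrophage markers, which summed to 198 to 374.9 CPM in controls, 155.5 to 229 in NASH and 132 to 197 in NASH-CH, 1 was called lower in NASH and 4 in NASH-CH. Of 6 stellate cell markers, which summed to 270.3 to 364 CPM in controls, 219 to 297.5 in NASH and 269 to 409 in NASH-CH, 1 was called lower in NASH, and 1 lower and 2 higher in NASH-CH. Col3a1 alone had a mean of 236 CPM in controls, so that sum also mostly followed 1 gene. Of all genes tested, 1.54% were called lower in NASH and 8.60% in NASH-CH, and 3.12% and 17.0% in either direction. The part of cell makeup in the members' values was not tested. Totals per rat were 19498516 to 27174006 counts in control, 20827733 to 29491895 in NASH and 44680345 to 60117806 in NASH-CH rats, so library differences and the NASH-CH condition cannot be told apart. With NASH-CH counts thinned to the control mean total, 7 members were again called lower in NASH-CH.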

How the data were processed

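Liver RNA of 18 rats was sequenced as 1 library per rat. Per the labels and the study's methods, the authors trimmed adapters (Trim Galore), aligned reads to Rnor_6.0 with STAR in 2-pass mode and counted with RSEM on Ensembl release 95; tool versions are not given in the sources used here. They deposited RSEM expected counts per gene, not scaled for library size or gene length, so levels are not compared between genes. The kit in the labels marks strand; the strand setting of the counting is not given in the sources used here.

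Expected counts were rounded and scaled by TMM in edgeR 4.0.16. Tests used voom and moderated statistics of limma 3.58.1 in R 4.3.3, in 1 fit of the 18 rats with a mean per group, after filterByExpr (12904 genes). P-values were adjusted by the Benjamini-Hochberg method over all genes tested, at a threshold of 0.05. CPM are TMM-scaled, log2 CPM used a prior count of 2, and limma gave the 95% intervals. The main limma-voom fit, edgeR and DESeq2 were each tried on simulated counts before use, and the other alternatives were not. In the simulation 200 of 12904 genes were changed by 1.5 on the log2 scale. Recovered were 189 by limma-voom, 190 by edgeR and 194 by DESeq2, with 8, 9 and 31 false calls. In the simulated comparison without changed genes, false calls were 0, 0 and 2. Nothing in the labels ties same-numbered rats to each other. The deviations of same-numbered rats had a correlation over 0.1 in 2 of 6 pairs for control and NASH rats and in 1 of 6 for control and NASH-CH, so no block was used. The smallest chi-square per degree of freedom between rats of a group was 28.3, so no library appeared to be a copy of another. Alternatives included edgeR's quasi-likelihood test and DESeq2 1.42.0, other scalings and filters, and leaving out each rat.

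The members and lists were chosen with earlier results of these data known. Named genes were the members, Srebf2, the 5 genes of each list that passed with the largest absolute moderated t in a comparison with control, and the 10 genes most like the members; family copies of the members were also named; Insig1 was named after its values were seen; some genes of the lists are not reported here by name. Of the listed markers, Col1a2 and Pecam1 were not found by symbol. The marker lists of cholangiocytes, endothelial cells and lymphocytes had 0 genes called in NASH, and 0, 1 and 0 in NASH-CH. Of all genes tested, 3.12% were called in NASH and 17.0% in NASH-CH. Promoter windows are those of RefSeq for GRCr8, another build than that of the counts. Protein-coding genes were taken from RefSeq by symbol. Figures were drawn with matplotlib 3.10.9. Counting error was not negligible in single rats for members with low counts, such as Aacs, Acat2 and Mvd, and the number of rats limits precision.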

Additional observations from a re-analysis of the deposited data

Results flagged for a closer look

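Each of the 9 members was checked for a rat far from the other 5 of its group, in 27 groups of 6, of which chance alone flags about 1 in 20. In 1 group a rat stood apart by Dixon's test at the 95% level. NASH rat 1 had 2.14 CPM of Aacs, compared with 1.11 in the next highest NASH rat, a gap of 0.817 of the range of the group. It was below every control rat, the lowest of which had 4.55 CPM. Without this rat the log2 fold change of Aacs in NASH was -3.23 (limma-voom adjusted p = 0.00666).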

How the results depend on the processing

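Under all alternatives run, the log2 fold changes of the 9 members against controls stayed below 0 in both models. An adjusted p under 0.01 left 5 members called in NASH and 4 in NASH-CH. Without 1 rat, 5 to 9 members were called in NASH (5 without control rat 1 or without NASH rat 3), 5 to 7 in NASH-CH and 0 to 0 between the models. The calls lost in NASH were those of Hmgcs1, Mvk, Idi1 and Fdft1, and in NASH-CH those of Hmgcs1 and Fdps. Library size only left 7 members called in NASH and 5 in NASH-CH. Omitting the filter left 7 in NASH, with more genes tested. Summing Acat2 and Acat2l1 was chosen after seeing the data.

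Between the models, where no member passed, the sign turned for Aacs (main value 0.01) with library size only (-0.0058), at least 10 counts in every rat (-0.0081), quality weights (-0.166), thinned counts (-0.0545) and protein-coding genes (-0.0094), and over fits without 1 rat it ran from -0.2738 to 0.17. With quality weights Hmgcs1 had -0.1631 and Idi1 -0.0253, and without 1 rat Hmgcs1 ran from -0.0692 to 0.39.

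Of the 50 genes in neighbouring lists, 9 were called in NASH, 7 in NASH-CH and 0 between the models, where 3.12%, 17.0% and 4.20% of all genes were called. DESeq2 gave 15, 12 and 2, quality weights 15 in NASH and 2 between the models, and an adjusted p under 0.01 gave 2 in NASH and 1 in NASH-CH. A log2 fold change of at least 1 left 3 in NASH-CH. Between the models, edgeR, the replicate block and thinned counts each gave 1, and no filter gave 3. Without 1 rat the counts ran from 4 to 12 in NASH (4 without control rat 4 or NASH rat 5, 5 without control rat 1 or NASH rat 3), from 4 to 9 in NASH-CH (4 without control rat 2, 3, 4 or 5 or NASH-CH rat 2) and from 0 to 1 between the models (1 without NASH rat 1 or NASH-CH rat 4 or 6). Over all genes, 403 were called in NASH, 2192 in NASH-CH and 542 between the models. In NASH edgeR gave 652, DESeq2 1228, library size only 865, no filter 268, the compared groups alone 644 and quality weights 1509. In NASH-CH no filter gave 5495 and the compared groups alone 1408, and between the models DESeq2 gave 949, no filter 2649, the compared groups alone 349 and protein-coding genes 164. The cause of these changes was not tested. With the replicate number as a block, 9 members were called in NASH and 7 in NASH-CH, and no call of a member changed. Rats with the same number share only that number.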
